A study of Mus musculus with 6 samples.

Results

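Glutamate and GABA receptor subunits were examined in RNA sequencing of the E13.5 mouse cortex, as the genes of the AMPA, kainate, NMDA and metabotropic glutamate receptors and of the GABA-A and GABA-B receptors. Members were taken by gene symbol, without use of any measured value, and 42 of the 17348 genes in the deposited table matched. They comprised 24 glutamate receptor genes, of which 4 encode AMPA, 5 kainate, 7 NMDA and 8 metabotropic subunits, and 18 GABA receptor genes, of which 16 encode GABA-A and 2 encode GABA-B subunits. The genotypes were WT and conditional knockout (cKO) of Ybx1, an RNA-binding protein, with 3 libraries each from separate biological replicates. In the cKO, floxed Ybx1 is deleted by a Nestin-Cre transgene, which is active in neural progenitors and inherited by the neurons and glia they form, while cells of other lineages, such as blood, keep the gene. WT embryos are called Ctrl in the table, a name the study gives to Ybx1 fl/fl embryos without Cre, and the labels do not state whether these carried the floxed allele. Whether a library came from 1 embryo or from several is not stated, and neither are sex and litter.

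Glutamate and GABA are the principal excitatory and inhibitory transmitters of the mature cortex. AMPA, kainate and NMDA receptors are tetrameric cation channels opened by glutamate, GABA-A receptors are pentameric chloride channels, and metabotropic glutamate and GABA-B receptors signal through G proteins. In the embryonic cortex, receptors appear on progenitors and young neurons before most synapses exist, and GABA tends to depolarise these cells because their internal chloride is high. The comparison of genotypes asked whether transcript levels of these receptors differed in the cKO cortex at E13.5. In the study's immunostaining, Ybx1 protein was still present in cKO cortex at an earlier stage and almost gone from E13.5. The libraries thus sample an early time after its loss, and later stages were not examined here.

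Library totals lay between 15907491 and 16282929 estimated counts, and 15685 to 16309 genes had a count above 0. Ybx1 itself averaged 923 ± 356 CPM (counts scaled to a common normalised library total; SD, n = 3) in WT and 116 ± 31.9 CPM (SD, n = 3) in cKO. The library labelled WT replicate 2 held 528 CPM, between the other WT libraries (1021 and 1220 CPM) and the cKO libraries (83.1 to 147 CPM), and so went partly against its label. By the quasi-likelihood test of edgeR, adjusted after Benjamini-Hochberg, the log2 fold change of Ybx1 was -3.00 (SE 0.33) with an adjusted p of 0.128. DESeq2 gave -3.00 with an adjusted p of 5.46e-10, and the other alternatives gave adjusted p-values of 0.0188 to 0.953, of which 0.0206 was without WT replicate 2. cKO replicate 3 carried transcripts of skin and meninges: 8 markers of these tissues summed to 482 TPM (a level per transcript length with a fixed library sum) there and to 4.41 to 7.36 TPM in the other 5 libraries. The tissue matched its label in its cortical markers, as 8 radial glia markers summed to 2325 to 3306 TPM and 7 cortical neuron markers to 3071 to 4143 TPM. Against these stood 15.6 to 23.3 TPM for 7 markers of subpallium and striatum and 0.2 to 0.99 TPM for 3 of choroid plexus. Other lists were higher, with 40.2 to 61.5 TPM for 5 markers of thalamus and other brain regions and 201 to 375 TPM for 15 of interneurons. Blood was also present, at 4235 to 7676 TPM for 7 erythroid markers.

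The E13.5 cortex expressed 26 of the 42 subunits at a mean of at least 1 TPM over the 6 libraries, and 10 of them at 10 TPM or more. The levels were led by Gria2 at a mean of 136 TPM, Gabbr1 at 97.3 TPM and Grik5 at 95.8 TPM, and among the rest Grik2 was at 33.5 TPM. Gabbr1 and Grik5 could not be ordered, because their libraries spanned 83.1 to 121 TPM and 81.9 to 120 TPM. One of the 26, Gabrp, reached the limit through cKO replicate 3 alone. Just below the limit lay Grm4 at 0.97 TPM, Grin2d at 0.888 TPM and Gabrq at 0.777 TPM, and just above it Grin3b at 1.06 TPM and Grik4 at 1.15 TPM. The summed level of all 42 subunits was 528 ± 69.2 TPM (SD, n = 3) in WT and 532 ± 94 TPM (SD, n = 3) in cKO, or 0.0445% to 0.0632% of the summed TPM of a library. Without Gabrp it was 528 ± 69.2 TPM in WT and 517 ± 101 TPM in cKO (SD, n = 3 each). The libraries of the genotypes overlapped in both sums.

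**Figure D1:**
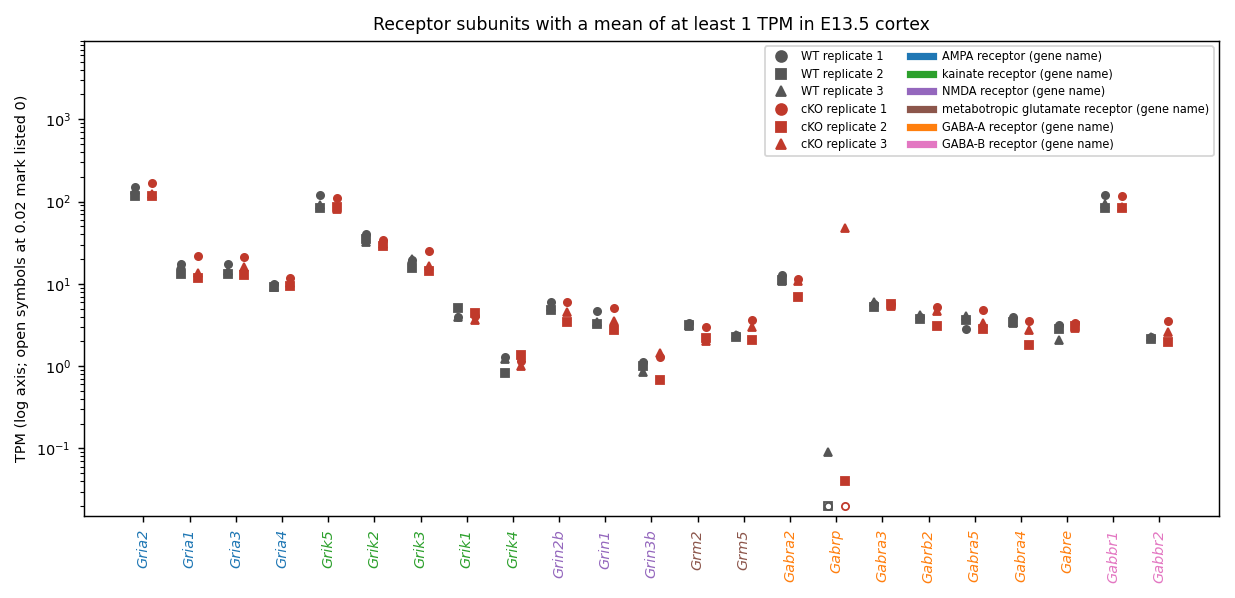
TPM of 23 receptor subunits with a mean of at least 1 TPM, on a log axis, with WT libraries in grey and cKO libraries in red and the replicate given by the symbol. The libraries of a gene lie close together except for Gabrp, which is at 47.2 TPM in cKO replicate 3 and at or below 0.09 TPM in the other 5 libraries.

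No receptor subunit differed between genotypes after adjustment. Of the 42 subunits, 35 passed the filter on low counts, and the quasi-likelihood test of edgeR, adjusted after Benjamini-Hochberg, called 0 of them higher and 0 lower in cKO, with a lowest adjusted p of 0.99995. Over all 13340 genes tested it also called 0 (0%) in either direction. At an unadjusted p under 0.05 there were 2 subunits, Grin2d on the higher side and Grik2 on the lower side. That is 5.71% of the 35, against 3.57% of all genes tested (1.75% higher and 1.81% lower). DESeq2 gave 0 subunits at an adjusted p under 0.05 and 1, Grik2, at an unadjusted p under 0.05, against 2.55% of all genes. The median log2 fold change was -0.02 over the 35 subunits and 0.00 over all genes, with 17 subunits above 0 and 18 below (50.8% and 49.2% of all genes), and values ran from -0.58 for Grm7 to 0.62 for Grin2d. The 95% interval lay wholly within a 2-fold change for 30 of the 35 subunits (91.5% of all genes) and within a 1.5-fold change for 15 of the 35 (78.2% of all genes). Because the tissue was sequenced in bulk, fewer cells of a type and less RNA per cell cannot be told apart in any of these values.

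**Figure D2:**
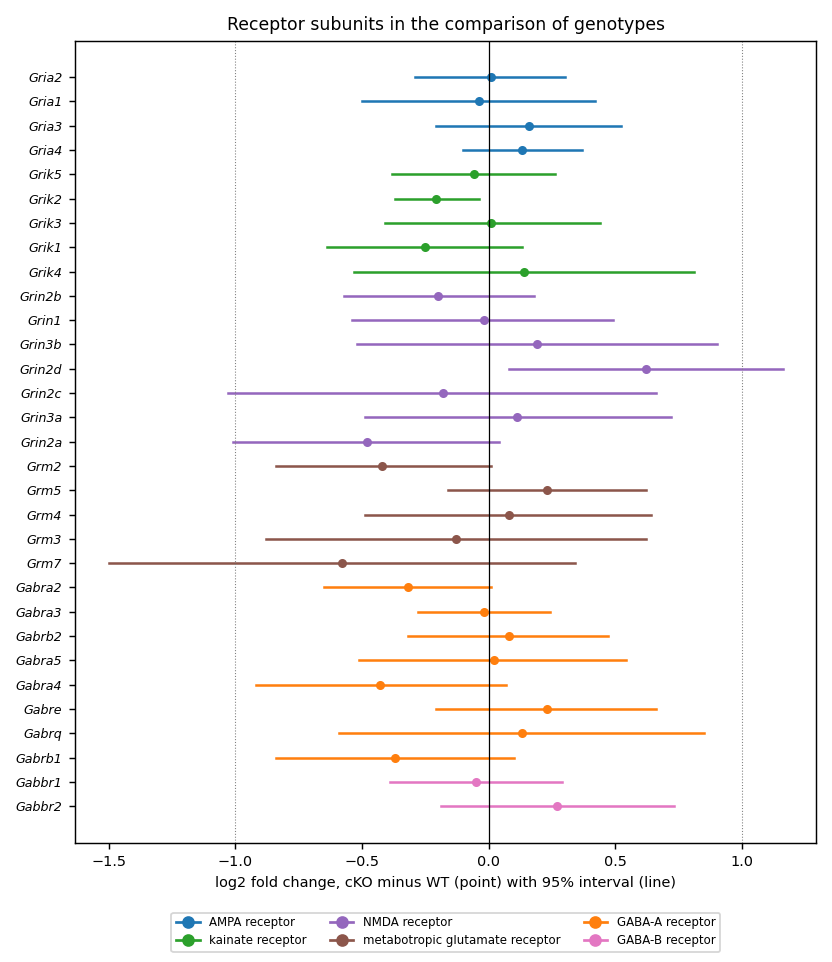
Log2 fold change of 31 of the tested subunits, cKO minus WT (points), with 95% intervals (lines), coloured by receptor family, and dotted lines at a 2-fold change. The intervals of Grin2d and Grik2 leave out 0, and those of the other 29 subunits drawn include it.

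AMPA receptor subunits, which form the channels of fast excitatory transmission, showed the highest summed level of the 6 families, with 176 ± 21.8 TPM in WT and 180 ± 38.9 TPM in cKO (SD, n = 3 each). Gria2 encodes the subunit whose edited form makes the channel impermeable to calcium. Its level was 152, 117 and 137 TPM in WT replicates 1, 2 and 3 and 169, 118 and 122 TPM in cKO replicates 1, 2 and 3. The genotypes overlapped, with cKO replicate 1 highest and WT replicate 2 lowest. Gria1 encodes the subunit that dominates activity-dependent receptor insertion in mature neurons, and it was at 17.5, 13.2 and 17.1 TPM in WT and 21.8, 11.9 and 13.6 TPM in cKO. Gria3, on chromosome X, was at 17.2, 13.3 and 14.2 TPM in WT and 21.4, 12.7 and 15.9 TPM in cKO. Both had their highest and their lowest library within the cKO group, and their levels could not be ordered between them. Gria4, an early-expressed subunit, was the lowest of the 4, at 9.97, 9.23 and 9.25 TPM in WT and 11.8, 9.41 and 10.2 TPM in cKO. Gria2 made up 75.4% to 77.7% of the summed AMPA level in the 6 libraries, so the share of Gria2 varied less than its level. The shares of Gria1, Gria3 and Gria4 ran from 7.81% to 9.74%, 8.02% to 9.84% and 5.07% to 6.31%. Log2 fold changes lay between -0.04 and 0.16 (median 0.07), and that of Gria2 was 0.01 (95% interval -0.29 to 0.30).

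Kainate receptors modulate excitability and neurite outgrowth, and their subunits fall into those that form channels alone (Grik1, Grik2 and Grik3) and the high-affinity partners that need them (Grik4 and Grik5). The summed level was 158 ± 23.9 TPM in WT and 148 ± 24.8 TPM in cKO (SD, n = 3 each). Most of it was the partner subunit Grik5, at 120, 82.5 and 92.1 TPM in WT replicates 1, 2 and 3 and 112, 86.6 and 81.9 TPM in cKO replicates 1, 2 and 3. It made up 59.3% to 65% of the family's level, more than the channel-forming subunits together in every library. Grik4, the other partner, was at 1.28, 0.82 and 1.23 TPM in WT and 1.17, 1.38 and 1 TPM in cKO. Grik3 was at 19.4, 15.7 and 19.8 TPM in WT and 25.4, 14.3 and 16.4 TPM in cKO, and Grik1 was at 3.99, 5.13 and 4 TPM in WT and 4.07, 4.39 and 3.61 TPM in cKO. The libraries of the genotypes overlapped for these 4 genes.

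Grik2 (chr10:49093680-49790161, GRCm38), the main channel-forming kainate subunit here, was the subunit with the lowest unadjusted p. It gave 117, 112 and 104 CPM in WT replicates 1, 2 and 3 and 99.5, 91.5 and 97.4 CPM in cKO replicates 1, 2 and 3. The genotypes did not overlap, with the cKO libraries on the lower side and a gap between 99.5 and 104 CPM. The group means were 111 ± 6.73 and 96.1 ± 4.12 CPM (SD, n = 3 each). The log2 fold change was -0.21 (SE 0.07, 95% interval -0.37 to -0.04), a level 13.4% below WT, with an unadjusted p of 0.0197 in edgeR's quasi-likelihood test, a model fitted across all genes, and an adjusted p of 0.99995. On the TPM scale the libraries overlapped, at 40, 35 and 32.6 TPM in WT and 34.6, 28.5 and 30.2 TPM in cKO. Leaving out both WT replicate 2 and cKO replicate 3 gave an unadjusted p of 0.0884 by the same model.

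**Figure D3:**
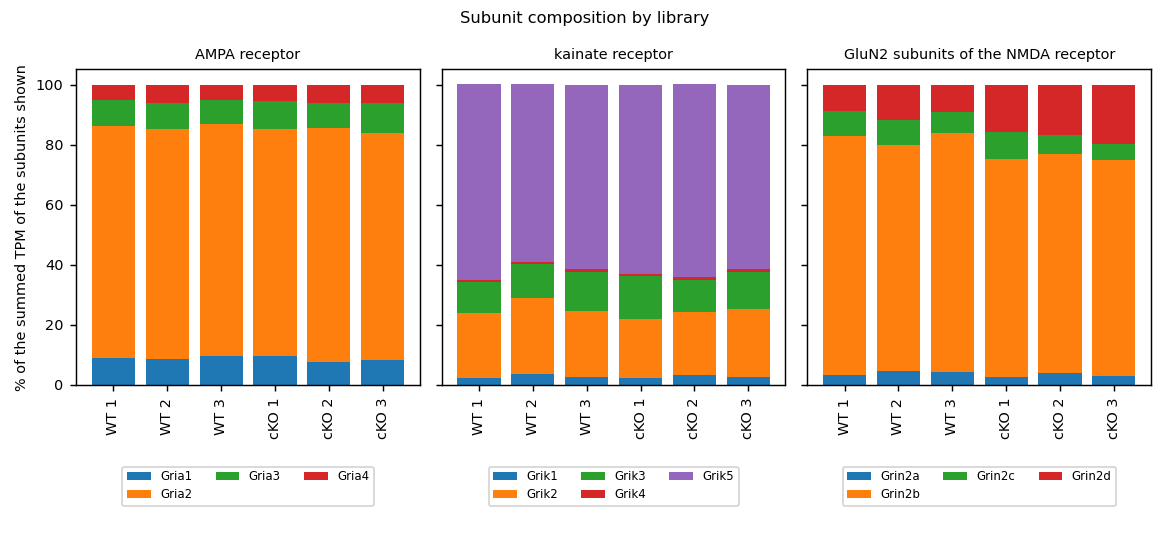
Share of each subunit in the summed TPM of its group, in percent, for AMPA subunits, kainate subunits and GluN2 subunits of the NMDA receptor, with 1 bar per library. Gria2 and Grik5 hold the largest shares of their families in every library, and the Grin2d share is 8.69% to 11.8% in WT libraries and 15.6% to 19.6% in cKO libraries.

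NMDA receptors need the obligatory subunit Grin1 together with GluN2 or GluN3 subunits, which set their kinetics and block by magnesium. Their summed level was far below that of the AMPA and kainate families, at 12 ± 1.4 TPM in WT and 11.9 ± 3.28 TPM in cKO (SD, n = 3 each). Grin2b, the GluN2 subunit of the early brain, was at 5.95, 4.76 and 5.23 TPM in WT replicates 1, 2 and 3 and 6, 3.44 and 4.57 TPM in cKO replicates 1, 2 and 3. Grin1 was at 4.66, 3.29 and 3.43 TPM in WT and 5.06, 2.79 and 3.56 TPM in cKO. For both genes cKO replicate 1 was highest and cKO replicate 2 lowest, with log2 fold changes of -0.20 (95% interval -0.57 to 0.18) and -0.02 (-0.54 to 0.49). Grin3b, a GluN3 subunit that lowers calcium permeability, was at 1.12, 1.01 and 0.84 TPM in WT and 1.29, 0.68 and 1.44 TPM in cKO. Its exons share 32.13% of their bases with Tmem259 on the opposite strand, and those of Grin1 share 13.47% with Grin1os, so these values are uncertain because the strand setting of the counting is not stated. The remaining GluN subunits Grin2c, Grin3a and Grin2a averaged 0.503, 0.462 and 0.24 TPM over the 6 libraries.

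Grin2d (chr7:45831883-45871194, GRCm38), a GluN2 subunit of slow kinetics that is found in interneurons and subcortical regions of the mature brain, was the only subunit whose cKO libraries all lay above the WT libraries (4.21% of all genes tested did so). It was at 1.63, 1.86 and 1.44 CPM in WT replicates 1, 2 and 3 and 3, 2.13 and 2.47 CPM in cKO replicates 1, 2 and 3, or 0.65, 0.75 and 0.6 TPM in WT and 1.29, 0.79 and 1.25 TPM in cKO. The gap between the groups was narrow, from WT replicate 2 to cKO replicate 2. The log2 fold change was 0.62 (SE 0.23, 95% interval 0.08 to 1.16), a level 1.54-fold that of WT, with an unadjusted p of 0.0288 in edgeR's quasi-likelihood model and an adjusted p of 0.99995. DESeq2, also fitted across all genes, gave an unadjusted p of 0.0766. The ratio of Grin2b to Grin2d in TPM was 9.15, 6.35 and 8.72 in WT and 4.65, 4.35 and 3.66 in cKO. As a share of the GluN2 level, Grin2d made up 8.69% to 11.8% in WT and 15.6% to 19.6% in cKO, and Grin2b 75.1% to 79.5% in WT and 71.7% to 73% in cKO. Interneuron markers moved with Grin2d, as 15 of these genes summed to 234, 201 and 266 TPM in WT and 375, 346 and 343 TPM in cKO. None of the 15 was at 0 counts in any library, and their part in the Grin2d value was not tested.

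Grin2a, the GluN2 subunit that rises after birth, is named because of its library order, which was seen first. It gave 1.7, 2.23 and 2.13 CPM in WT replicates 1, 2 and 3 and 1.5, 1.44 and 1.39 CPM in cKO replicates 1, 2 and 3. The cKO libraries were the 3 lowest, also on the TPM scale (0.25, 0.3 and 0.29 TPM against 0.21, 0.19 and 0.2 TPM). The log2 fold change was -0.48 with a 95% interval of -1.01 to 0.04. The subunits whose cKO libraries all lay below the WT libraries in CPM were Grik2, Grin2a, Grm2, Gabra2 and Gabra4, that is 5 of 35 or 14.3%, against 4.83% of all genes tested. With Grin2d, 6 of the 35 had no overlap in either direction, against 9.04% of all genes tested. In the deposited TPM, Grin2a and Grm2 on the lower side and Grin2d on the higher side also showed no overlap. The share of all genes without overlap in TPM was not computed.

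Metabotropic glutamate receptors couple to Gq in group I, which includes Grm5, and to Gi/o in group II (Grm2 and Grm3) and group III (Grm4, Grm6, Grm7 and Grm8). The family summed to 9.76 ± 0.626 TPM in WT and 9.03 ± 1.37 TPM in cKO (SD, n = 3 each). Grm5, known from cortical progenitors and young neurons, was at 2.37, 2.28 and 2.39 TPM in WT replicates 1, 2 and 3 and 3.61, 2.08 and 2.99 TPM in cKO replicates 1, 2 and 3. It did not separate the genotypes, since its WT libraries lay within the range of the cKO libraries. Grm2, a presynaptic group II receptor, was at 4.65, 4.77 and 4.56 CPM in WT and 4.18, 3.32 and 2.96 CPM in cKO, or 3.38, 3.17 and 3.1 TPM in WT and 3, 2.22 and 2.05 TPM in cKO. Every cKO library was below every WT library on both scales. Its log2 fold change was -0.42 (SE 0.18, 95% interval -0.84 to 0.01). Grm4 was the highest of the other metabotropic genes at a mean of 0.97 TPM, and Grm3, Grm7, Grm8 and Grm6 followed at 0.653, 0.442, 0.418 and 0.025 TPM. Grm6, the receptor of retinal ON bipolar cells, had 0 to 2 counts per library, below the 3 counts that a count of 0 allows (0.181 to 0.188 CPM). The median log2 fold change of the 6 tested metabotropic genes was -0.18.

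**Figure D4:**
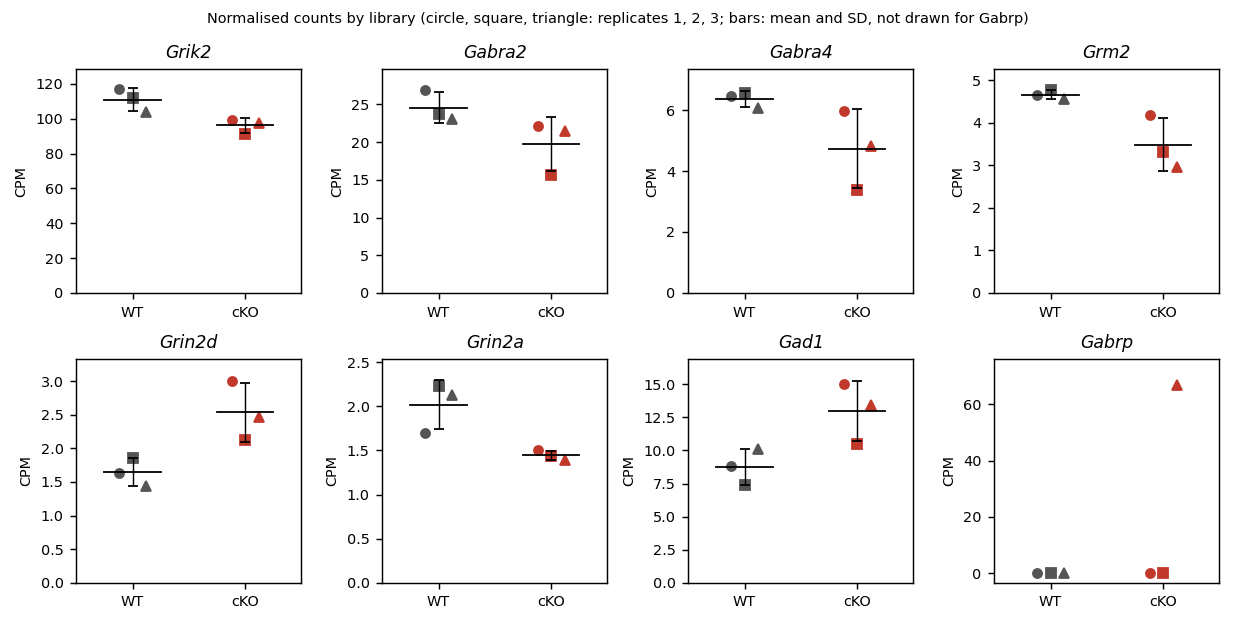
CPM of 6 receptor subunits with small or no overlap between genotypes, of the GABA-synthesising enzyme gene Gad1, and of Gabrp, by library, with bars for mean and SD except for Gabrp. The cKO points of Grik2, Gabra2, Gabra4, Grm2 and Grin2a lie below the WT points, those of Grin2d and Gad1 lie above them, and Gabrp is at 67 CPM in 1 cKO library and at or below 0.125 CPM in the other 5.

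GABA-A receptors are pentamers, most often of alpha, beta and gamma subunits, with delta, epsilon, pi, theta and rho subunits as variants. Without Gabrp, the family summed to 71.2 ± 3.18 TPM in WT and 69.3 ± 13.7 TPM in cKO (SD, n = 3 each), and the WT libraries differed little from each other (67.9 to 74.3 TPM) while the cKO libraries spanned 55.8 to 83.2 TPM. Gabrb2, the main adult beta subunit, was at 3.99, 3.79 and 4.21 TPM in WT replicates 1, 2 and 3 and 5.2, 3.05 and 4.66 TPM in cKO replicates 1, 2 and 3. Gabre, the epsilon subunit, was at 3.17, 2.84 and 2.1 TPM in WT and 3.35, 3.07 and 2.94 TPM in cKO. The genotypes overlapped for both genes, with log2 fold changes of 0.08 (95% interval -0.32 to 0.47) for Gabrb2 and 0.23 (-0.21 to 0.66) for Gabre.

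The alpha subunits form the GABA site together with beta subunits and set the receptor's location and drug response. Gabra2, the main alpha subunit here, was at 26.9, 23.7 and 23.1 CPM in WT replicates 1, 2 and 3 and 22.1, 15.6 and 21.5 CPM in cKO replicates 1, 2 and 3, or 12.7, 11.2 and 10.7 TPM in WT and 11.5, 6.97 and 10.7 TPM in cKO. The groups did not overlap in CPM but did in TPM, and cKO replicate 2 lay well below the other cKO libraries. The log2 fold change was -0.32 (SE 0.14, 95% interval -0.65 to 0.01). Gabra4, a partner of the delta subunit in extrasynaptic receptors, gave 6.47, 6.57 and 6.06 CPM in WT and 5.99, 3.39 and 4.83 CPM in cKO, or 3.91, 3.48 and 3.38 TPM and 3.5, 1.81 and 2.79 TPM. It behaved like Gabra2, with a log2 fold change of -0.43 (SE 0.21, 95% interval -0.92 to 0.07) and cKO replicate 2 lowest. Gabra3, an embryonic alpha subunit, was at 5.64, 5.27 and 6.07 TPM in WT and 5.77, 5.74 and 5.42 TPM in cKO. Gabra5, best known from extrasynaptic receptors, was at 2.8, 3.62 and 4.03 TPM in WT and 4.81, 2.84 and 3.32 TPM in cKO. These genes overlapped between genotypes, and the interval of Gabra3 was narrow (log2 fold change -0.02, 95% interval -0.28 to 0.24). Gabra2 made up 39.6% to 50.3% of the summed alpha level.

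Several GABA-A genes lie in clusters in the genome, a grouping made after their values were seen. On chromosome 5, Gabrg1, Gabra2, Gabra4 and Gabrb1 lie between positions 70751047 and 72149572 (GRCm38). The 3 tested genes of this cluster had log2 fold changes of -0.32, -0.43 and -0.37 for Gabra2, Gabra4 and Gabrb1, each with a 95% interval that included 0. Exons of Gabra4 and Gabrb1 share 46 bases on opposite strands. In the cluster on chromosome X, Gabre, Gabra3 and Gabrq had log2 fold changes of 0.23, -0.02 and 0.13.

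The low GABA-A members were led by Gabrq, the theta subunit, at a mean of 0.777 TPM, followed by Gabrd (delta, extrasynaptic) at 0.642 TPM, Gabrb1 at 0.598 TPM, Gabrr2 (rho, known from the retina) at 0.502 TPM, Gabrg1 at 0.248 TPM and Gabrg3 at 0.12 TPM. Gabrd, Gabrg1, Gabrg3 and Gabrr2 did not pass the filter on low counts and had no test, as was the case for Gabrp, Grm6 and Grm8. Gabrp (chr11:33550781-33578978, GRCm38) encodes the pi subunit, which is known from epithelia rather than from neurons. It had 0, 0 and 2 counts in WT replicates 1, 2 and 3 and 0, 1 and 1110 counts in cKO replicates 1, 2 and 3, and its level in cKO replicate 3 was 47.2 TPM. The keratin genes of basal skin cells followed the same order, with Krt5 at 142 TPM and Krt14 at 78.6 TPM in cKO replicate 3 and both at or below 0.15 TPM in the other 5 libraries. The part of skin transcripts in the Gabrp value was not tested. With Gabrp, the summed GABA-A level of cKO was 85.1 ± 30.2 TPM (SD, n = 3).

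GABA-B receptors require a pair of subunits: Gabbr1 binds GABA, and Gabbr2 carries the first to the cell surface and couples to the G protein. Gabbr1 was at 121, 83.1 and 92.4 TPM in WT replicates 1, 2 and 3 and 118, 83.4 and 85.6 TPM in cKO replicates 1, 2 and 3. Gabbr2 was at 2.28, 2.13 and 2.24 TPM in WT and 3.55, 1.97 and 2.59 TPM in cKO. Gabbr1 thus exceeded its partner 33 to 53 times in level per length, with a ratio of 44.4 ± 7.53 in WT and 36.3 ± 5.29 in cKO (SD, n = 3 each), and the genotypes overlapped in the ratio and in both genes. The log2 fold changes were -0.05 (95% interval -0.39 to 0.29) for Gabbr1 and 0.27 (-0.19 to 0.73) for Gabbr2. TPM is computed over annotated transcripts, and which Gabbr1 isoforms the reads came from was not analysed here.

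The RefSeq promoter table of GRCm38.p6 held 29 of the 42 members, in 36 windows of which the 250 bases before the start were read. Those of Gabbr1 and Gabbr2 are shown because these obligatory partners were the furthest apart in level, and that of Gabrp because its reads came from 1 library. Capitals mark each CG dinucleotide, and the strand given is that of the gene. Gabbr1 lies on the plus strand (chr17:37045716-37045965), Gabbr2 on the minus strand (chr4:46991715-46991964) and Gabrp on the minus strand (chr11:33578958-33579207).
Gabbr1: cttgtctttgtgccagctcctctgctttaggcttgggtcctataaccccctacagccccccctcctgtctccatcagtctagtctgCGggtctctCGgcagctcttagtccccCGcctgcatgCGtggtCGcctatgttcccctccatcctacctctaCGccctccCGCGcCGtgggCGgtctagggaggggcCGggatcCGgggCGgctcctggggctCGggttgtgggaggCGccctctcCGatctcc
Gabbr2: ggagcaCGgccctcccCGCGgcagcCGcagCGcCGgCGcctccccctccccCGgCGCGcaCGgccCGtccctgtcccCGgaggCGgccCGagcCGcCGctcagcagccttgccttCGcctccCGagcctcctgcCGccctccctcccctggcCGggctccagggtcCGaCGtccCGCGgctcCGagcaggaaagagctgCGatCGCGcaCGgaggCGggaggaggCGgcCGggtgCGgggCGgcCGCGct
Gabrp: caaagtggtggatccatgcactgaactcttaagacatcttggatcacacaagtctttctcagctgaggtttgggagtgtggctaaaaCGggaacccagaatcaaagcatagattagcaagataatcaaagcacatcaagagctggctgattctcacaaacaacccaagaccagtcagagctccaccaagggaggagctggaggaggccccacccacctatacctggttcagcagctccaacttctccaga
The window of Gabbr1 held 16 CG dinucleotides at 66% GC, that of Gabbr2 37 at 80.8% GC and that of Gabrp 1 at 49.2% GC. More CG did not go with a higher level in the GABA-B pair. Among the members, 12 of the 16 with 10 or more CG dinucleotides in a window reached a mean of 1 TPM, and 6 of the 13 with fewer did. Gabrp is among these 6 and reached that mean through cKO replicate 3 alone. The median was 9 per window for members, 6 for all 32851 windows in the table and 13 for the 17276 windows of genes in the count table. The motif CCAAT, searched on both strands, was present in 14 of 36 member windows (38.9%) and in 33.8% of all windows.

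The cKO libraries differed from each other in the same direction over many subunits. Of the 26 tested subunits at a mean of 1 TPM or with an unadjusted p under 0.05, cKO replicate 1 was the highest library for 14 (53.8%) and cKO replicate 2 the lowest for 16 (61.5%). Over all genes tested, cKO replicate 1 was highest for 19.9% and cKO replicate 2 lowest for 14.8%. The median log2 deviation of the 26 subunits from their mean over the 6 libraries was 0.24 in cKO replicate 1 and -0.23 in cKO replicate 2, against -0.07 to 0.09 in the other 4 libraries. Cortical neuron markers were also high in cKO replicate 1: the 7 genes summed to 3989, 3071 and 3479 TPM in WT and 4143, 3120 and 3114 TPM in cKO. The 8 radial glia markers were lowest in replicate 1 of both genotypes, with 2388, 3148 and 3306 TPM in WT and 2325, 3222 and 3193 TPM in cKO. The 7 erythroid markers were at 4235 to 6179 TPM in WT and 4592 to 7676 TPM in cKO, again highest in cKO replicate 1. No gene of these 3 lists was at 0 counts in any library, and their part in the order of the libraries was not tested. Without cKO replicate 1 the count of subunits lower in cKO at an unadjusted p under 0.05 was 7 (Gabra2, Gabra4, Gria1, Grik2, Grin2b and Grm2 among them), and without cKO replicate 2 it was 0, while Gabbr2, Grin2d and Grm5 then made up a count of 3 on the higher side. Of all genes, 7.81% had an unadjusted p under 0.05 without cKO replicate 1 and 4.27% without cKO replicate 2, against 3.57% with all libraries. The lowest adjusted p of a subunit in these 2 edgeR fits was 0.626.

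**Figure D5:**
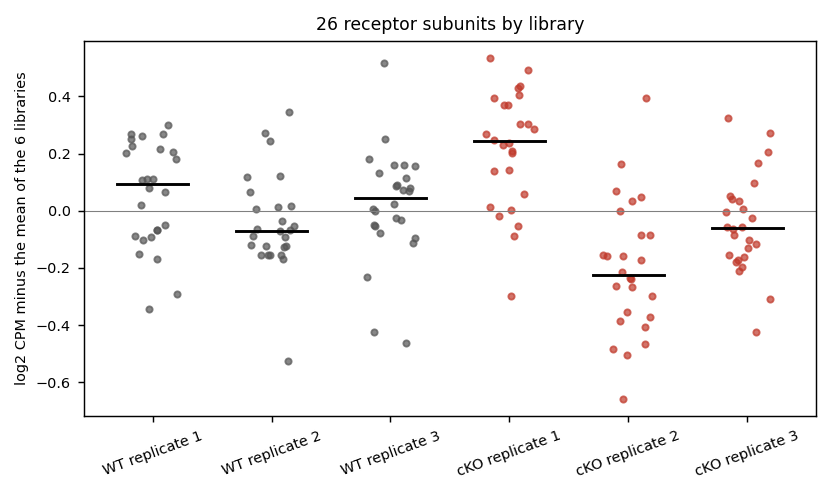
Deviation of log2 CPM from the mean of the 6 libraries for 26 tested subunits, by library, with a horizontal bar at the median. The points of cKO replicate 1 lie mostly above 0 (median 0.24) and those of cKO replicate 2 mostly below (median -0.23), although both carry the same genotype.

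Genes that serve these receptors were read from 7 lists, chosen with earlier results of these data known. The table held 72 of the listed genes, of which 66 were tested. The same test called 0 of them in either direction after adjustment. At an unadjusted p under 0.05 it gave 3 on the higher side and 2 on the lower side, or 7.58% in all against 3.57% of all genes tested. The median log2 fold change was -0.08 for partners of ionotropic glutamate receptors (21 tested), -0.10 for those of metabotropic glutamate receptors (10 tested), 0.01 for those of GABA-A receptors (12 tested) and -0.02 for those of GABA-B receptors (7 tested). The highest in these lists were Cnih2, an AMPA receptor chaperone, at a mean of 166 TPM, Gnao1, the Go alpha subunit, at 258 TPM, Gabarap, a trafficking protein of GABA-A receptors and of autophagy, at 519 TPM, and Kctd12, an auxiliary GABA-B subunit, at 12.6 TPM. In these 4 lists, 20 of 21, 9 of 10, 12 of 12 and 6 of 7 partners had a 95% interval within a 2-fold change. Of all genes tested, 91.5% did. Homer2, a scaffold that ties group I metabotropic receptors to calcium stores, was at 109, 101 and 106 CPM in WT replicates 1, 2 and 3 and 86.2, 95.8 and 86.7 CPM in cKO replicates 1, 2 and 3. Its libraries did not overlap, and its log2 fold change was -0.23 (SE 0.07) with an unadjusted p of 0.0101 in the model fitted across all genes by edgeR. The chloride importer gene Slc12a2 was at a mean of 26.5 TPM and the exporter gene Slc12a5 at 3.07 TPM, both named after their values were seen, with log2 fold changes of 0.03 and 0.08.

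Among the 7 genes of GABA synthesis, release and uptake, 6 were tested, with a median log2 fold change of 0.33. At an unadjusted p under 0.05 in edgeR, 3 were on the higher side (50%), against 1.75% of all genes tested. Gad1, which encodes a GABA-synthesising enzyme, was at 8.79, 7.37 and 10.1 CPM in WT replicates 1, 2 and 3 and 15, 10.5 and 13.4 CPM in cKO replicates 1, 2 and 3. Gad2, which encodes the other, was at 14.6, 13.8 and 24.8 CPM in WT and 25.6, 24.8 and 25.3 CPM in cKO. The libraries of Gad1 did not overlap, and WT replicate 3 of Gad2 reached the cKO range. The log2 fold changes were 0.56 (SE 0.17) and 0.51 (SE 0.21), with unadjusted p-values of 0.0113 and 0.0422 in edgeR's quasi-likelihood model and adjusted p-values of 0.99995. Leaving out both WT replicate 2 and cKO replicate 3 left 1 gene of all 7 lists on the higher side at an unadjusted p under 0.05. Gad1 and Gad2 also belong to the interneuron markers, of which 14 were tested. The edgeR test called 0 of them after adjustment. At an unadjusted p under 0.05, 6 were higher (42.9%, with Gad1 and Gad2 counted again), against 1.75% of all genes tested. The GABA synthesis and interneuron lists were chosen with earlier results of these data known. Their shares beside that of all genes are therefore a description and cannot serve as a test. The lowest adjusted p of the interneuron list was 0.0953 in edgeR, for Sst, and it was 5.46e-10 in DESeq2 and between 0.0381 and 0.681 under the other alternatives. Sst encodes somatostatin and was at 9.67, 7.75 and 9.25 CPM in WT and 20.3, 19.3 and 19.7 CPM in cKO. Beside these, the other interneuron genes at an unadjusted p under 0.05 were Dlx1, Dlx5 and Npy, with log2 fold changes of 0.76, 0.79 and 0.74. The median log2 fold change was 0.53 for the 14 interneuron markers and 0.02 for the 13 tested GABA receptor genes, and the difference between the lists was not tested.

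In glutamate transport, 8 of 9 genes were tested, with a median log2 fold change of -0.07. Glul, the glutamine synthetase of radial glia and astrocytes, was the highest at 103 TPM. Slc1a1, a neuronal glutamate transporter, was at 24.6, 20.3 and 21 CPM in WT replicates 1, 2 and 3 and 21.2, 14.8 and 14.7 CPM in cKO replicates 1, 2 and 3, so that cKO replicate 1 lay within the WT range. Its log2 fold change was -0.38 (SE 0.16) with an unadjusted p of 0.0462 in edgeR's model across all genes and an adjusted p of 0.99995. Of the glycine receptor genes, which encode the other inhibitory chloride channels of the young cortex, Glra2 was the highest at 21.6 TPM. With Glrb it was 1 of 2 tested, and their log2 fold changes were 0.04 and -0.05.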

How the data were processed

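Total RNA of the E13.5 cortex was made into mRNA libraries and sequenced on a DNBSEQ platform, with 3 WT and 3 cKO libraries. The submitters' processing notes name HISAT2 2.2.1, Bowtie2 2.4.5, RSEM 1.3.1 and the builds GRCm38 and mm10, without saying which step each served. The annotation and the strand setting are not given in the sources used here. The authors deposited estimated counts, not normalised for depth (10.9% of values were not whole), TPM scaled to a common sum per library, and FPKM, which the authors scaled for length and depth and which was not used. The 6 columns that hold group averages were left out. Equal counts in a pair of libraries were found for at most 1.66% of tested genes, so none was deposited more than once.

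Estimated counts were rounded and tested over the whole table with edgeR 4.0.16 in R 4.3.3 (filterByExpr with a minimum count of 10 and a minimum total of 15, TMM factors of 0.987 to 1.03, glmQLFit and glmQLFTest, genotype as the only term, common dispersion 0.0169, prior degrees of freedom 3.92), two-sided, with a threshold of 0.05 after Benjamini-Hochberg adjustment over 13340 genes. Levels between genes were compared in TPM, differences between genotypes in TMM-normalised CPM. A limit of 3 counts covers counting error only. Tested on simulated counts for cKO against WT (13340 genes, 200 changed), the procedure recovered 44.5% at 1.5-fold, 79.5% at 2-fold and 95% at 4-fold, with 10, 8 and 16 false calls. The simulated counts were drawn independently for each gene and library, without shifts of whole libraries, so these shares need not hold for the real libraries. There edgeR called 0 genes, and Ybx1 itself, at a log2 fold change of -3.00, had an adjusted p of 0.128. Alternatives were RLE factors, no filter, DESeq2 1.42.0, the replicate number as a block, each library left out in turn, and WT replicate 2 and cKO replicate 3 left out together. The series has 3 sequencing batches without stating which libraries each holds, so batch and genotype cannot be told apart, and p-values measure the spread between these libraries. Gene positions are from RefSeq (GRCm38.p6), and strands and exon overlaps are from GENCODE M21 (GRCm38). Gabra6, Gabrr1 and Gabrr3 were not analysed here.

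Values in every library are given for subunits at a mean of 1 TPM or more or with an unadjusted p under 0.05, and of the other lists for genes with an unadjusted p under 0.05 and the highest of each list, but some genes that enter the counts are not reported singly here. Marker lists of cell types other than interneurons are given as sums, and among their genes Reln and Lhx9 (log2 fold changes -0.37 and -0.33) and, through cKO replicate 3, Col1a1, Col1a2 and Col3a1 (4.71, 5.35 and 4.06) had an unadjusted p under 0.05. The members and lists were chosen with earlier results of these data known.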

Additional observations from a re-analysis of the deposited data

How the results depend on the processing

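Over 11 alternatives, 0 receptor subunits passed the adjusted threshold, and their lowest adjusted p was 0.502, with the replicate number as a block. For all genes, the number called higher and the number called lower in cKO, each 0, became 2 and 2 with DESeq2, 1 and 1 with the replicate block, 1 and 1 with both WT replicate 2 and cKO replicate 3 left out, and 0 to 1 each with 1 library left out. Subunits higher at an unadjusted p under 0.05 (1) became 2 without a filter on low counts (Gabrp and Grin2d), 0 with DESeq2 and 0 to 3 with 1 library left out. Subunits lower (1) became 2 with the replicate block (Gabra2 and Grik2), 0 with both libraries left out and 0 to 7 with 1 library left out. The share of all genes at an unadjusted p under 0.05, 3.57%, was then 8.17% with the block, 2.55% with DESeq2, 3.75% without the filter, 1.84% with both left out and 1.77% to 7.81% with 1 left out. For the pathway lists, the 3 genes higher became 1 with both left out and 2 to 4 with 1 left out, and the 2 genes lower became 7 with the replicate block, 1 with both left out and 1 to 10 with 1 left out. Subunits whose cKO libraries all lay below WT numbered 2 in deposited TPM, a scale on which the share of all genes was not computed. The cause was not tested.

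The replicate numbers were not taken as pairs in the main model. Deviations from the group means correlated at 0.41, 0.31 and -0.02 for numbers 1, 2 and 3. Libraries of unlike number were not compared, so these values cannot decide whether the numbers pair the libraries. With the block, the log2 fold changes of Gria2 and Grik3 turned to -0.003 and -0.011, and with both libraries left out that of Gabrb2 turned to -0.006. With 1 library left out, values spanned 0 for Gabbr1 (-0.19 to 0.084), Gabra3 (-0.056 to 0.044), Gabra5 (-0.14 to 0.16), Gabrb2 (-0.043 to 0.25), Gria1 (-0.31 to 0.11), Gria2 (-0.13 to 0.082), Gria3 (-0.022 to 0.29), Grik3 (-0.23 to 0.15), Grik4 (-0.067 to 0.3), Grik5 (-0.18 to 0.072) and Grin1 (-0.25 to 0.15). Grin2d stayed between 0.49 and 0.74 and Grik2 between -0.25 and -0.16. A minimum of 0.5 TPM gave 34 expressed subunits and 2 TPM gave 23.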
